A study of Rattus norvegicus with 125 samples.

Results

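The genes that set the normal rat heart apart from other organs were described from 16 arrays of 4 air-breathing rats, each of which gave its heart, brain, kidney and liver. The rule used array values of these organs at 6 h: a gene counted as heart-enriched when its mean over the 4 hearts exceeded the highest of the 3 other organ means by at least 1 on the log2 scale (2-fold) and the heart was above each organ at an adjusted p under 0.05. It applied to 4 heart arrays and 12 arrays of the other organs, out of 125 arrays in the series. By this rule 838 of the 13439 genes measured were heart-enriched.

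The series followed adult male Sprague-Dawley rats that breathed phosphine (PH3), a toxic gas used as a grain fumigant, in a whole-body chamber. Tissues were flash frozen and pulverized, and their RNA was labelled from the 3′ end and hybridized to Affymetrix rat arrays. PH3 groups inhaled 387 ppm over 40 min (concentration times duration, 15480). The air groups spent the same 40 min in the chamber at 0 ppm. No group carried a genetic change, and all rats were outbred males. The 4 rats of the main comparison (rats 126, 132, 138 and 156) were killed 6 h after breathing air, so the heart values below are those of undosed animals. Further groups came from other rats: 4 hearts, 4 brains and 4 kidneys each at 1 h and 3 h after air, 2 hearts at 24 h after air, 10 lungs at 3 h, 24 h or 1 week after air, and 15 hearts at 1, 3, 6 or 24 h after PH3. The labels do not say which chambers each piece of heart held.

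A heart muscle cell shortens when calcium released from its internal store lets myosin heads on the thick filament pull on actin in the thin filament, and the Z-disc anchors the thin filaments and senses load. The cell renews its ATP almost wholly by oxidizing fatty acids and other fuels in mitochondria, buffers it with creatine phosphate and stores oxygen on myoglobin. A small set of transcription factors builds and maintains this program, and muscle-specific forms of common enzymes are used beside or in place of the forms found in brain, kidney or liver.

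All 6 defining markers of heart muscle, Myh6, Tnnt2, Tnni3, Myl3, Ryr2 and Nppa, were heart-enriched, while no marker of hepatocytes (0 of 12), kidney tubule and podocyte (0 of 11), neurons (0 of 10) or glia (0 of 7) was, where 6.24% of all genes were. With so few markers in a list, little can be read from a count of 0 at that share. The 4 hearts resembled each other closely, with correlations of 0.989 to 0.994 over all probe sets, against 0.737 to 0.810 between a heart and another organ. Array medians lay between 5.14 and 5.52 on the log2 scale and lower quartiles between 3.80 and 3.97. No detection call was used here, so a value near 4 cannot be read as expression. All levels are log2 array signals of 1 probe set per gene, and they compare organs for one gene, not one gene with another. Since each sample is a piece of whole tissue, fewer cells of a type and less RNA per cell cannot be told apart.

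Of the 838 heart-enriched genes, 186 (1.38% of all genes) were at least 8-fold and 81 at least 32-fold above the next organ. A further group of 272 genes (2.02%) was heart-low, at least 2-fold below the lowest of the 3 other organs, and 20 of these were at least 8-fold below it. Over all genes the heart lay a median of 0.48 below the highest other organ, with 5% of genes below -5.16 and 5% above 1.21. Against single organs, 5668 genes were higher in heart than in brain and 4171 (31%) lower, 4085 and 4320 (32.1%) against kidney, and 4518 and 4227 (31.5%) against liver, at adjusted p under 0.05. The higher genes were 57.6%, 48.6% and 51.7% of these calls, and 70.2%, 59.0% and 46.3% when each array was centred on its median, which moved the median difference of all genes by 0.27, 0.14 and -0.08. By the same rule as for heart, brain had 1431 enriched genes, liver 833 and kidney 695. The next-highest organ was kidney for 349 of the heart-enriched genes, liver for 247 and brain for 242. In 44 of them, 31 of these at least 8-fold, all 3 other organs lay under their lower quartile of signal. At the threshold, Obsl1 (1.00) lay just inside and Timm8a1 (0.999) just outside.

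Myh6, the fast α-myosin heavy chain that is the main motor of the adult rodent heart, had the largest measured difference. Its log2 signal was 13.72, 13.72, 13.66 and 13.61 in the hearts of rats 126, 132, 138 and 156, against 3.55 to 3.79 in brain, 3.47 to 3.80 in kidney and 3.48 to 3.68 in liver. No heart came near any other organ, and the other organs sat at the low end of the array's signal. The heart mean of 13.68 ± 0.05 (SD, n = 4) was 10.03 ± 0.13 (SE) above the next organ (limma, Benjamini-Hochberg adjusted p = 1.18e-17). With the other organs at the low end of signal, the sizes given for this and the next genes are limited by that end and do not rank the genes.

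Myl2, the regulatory light chain of the ventricles, read 13.55, 13.52, 13.55 and 13.44 in the 4 hearts and at most 3.92 elsewhere, a difference of 9.81. Mb, the oxygen store myoglobin, read 13.48, 13.32, 13.41 and 13.31 in the hearts and at most 4.47 elsewhere, a difference of 9.36. Myoz2, which ties calcineurin to the Z-disc, was 9.63 above the next organ. For each of the 3 genes the lowest heart lay far above the highest other array.

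Energy and calcium genes completed the leading 12 beside further filament proteins. Ckmt2, the mitochondrial creatine kinase of muscle, read 13.31, 13.34, 13.18 and 13.23 in the hearts and was 9.50 above the next organ, and Ckm, its cytosolic partner, was 8.52 above. Pln, the brake on the calcium pump of the store, was 8.65 above, and Csrp3, a Z-disc protein that senses load, 8.61. A further probe set of Pln read 3.95 in heart, near the low end of the array, and gave 0.48. Troponins Tnni3 (9.01) and Tnnt2 (8.51), which pass the calcium signal to the thin filament, and light chains Myl3 (8.67) and Myl7 (9.04) made up the rest. Single arrays of other organs stood out in some of these genes: Ckm read 5.14 in the liver of rat 132 against 3.84 to 3.95 in the other livers, and Tnnt2 read 5.84 in the brain of rat 126 against 4.24 to 4.52.

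**Figure D1:**
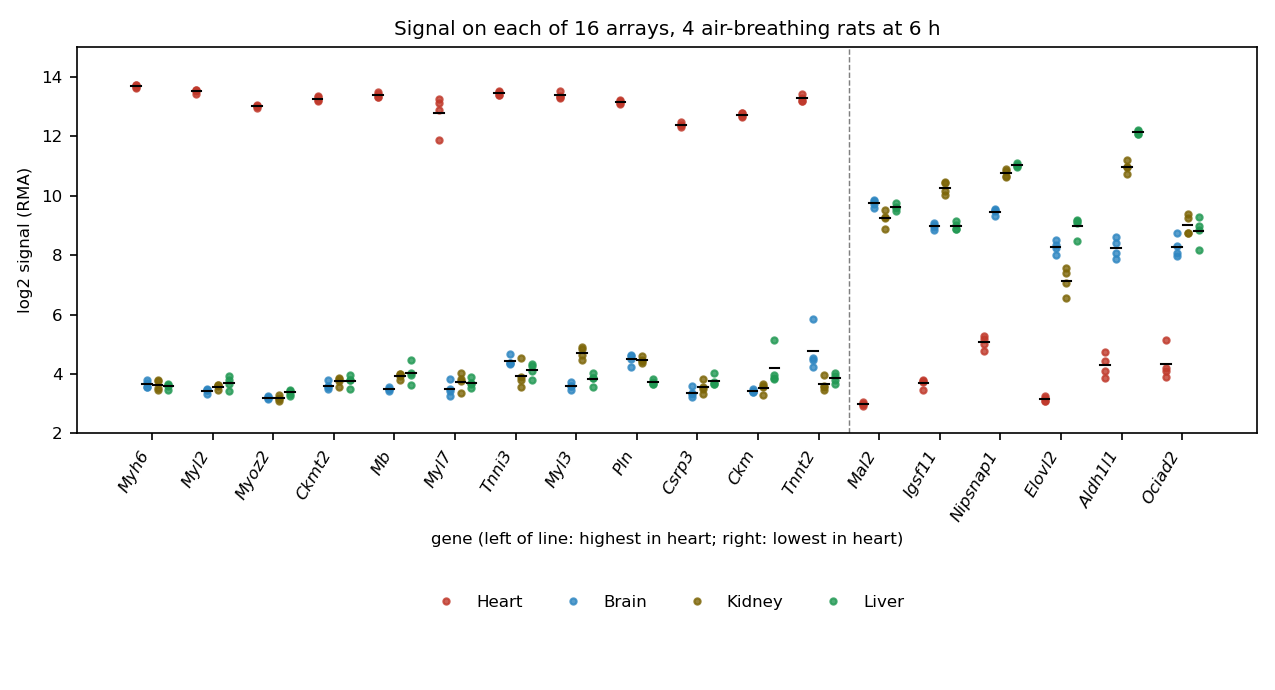
Log2 array signal (y axis) of the 12 heart-enriched genes with the largest difference, left of the dashed line, and the 6 heart-low genes with the largest difference, right of it (x axis), with 1 point for each of the 4 rats in heart, brain, kidney and liver and a bar at each mean. The hearts of Myh6 sit between 13.61 and 13.72 with all other organs at 3.80 or under, Myl7 shows 1 heart at 11.86 below the other 3, and the hearts of Mal2 lie near 3 with every other array at 8.89 or above.

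Sequences upstream of these genes are shown because the leading genes were high together. They are 250 bases before the gene start in RefSeq, build GRCr8, printed 5′ to 3′ on the strand of the gene, and letters in capitals are motif matches on either strand, chosen for printing after the sequences were seen. In Myl3 (chr8:119616844-119617093, + strand) the capitals are CATTCC, the core of the site that TEAD factors bind, found on both strands, and a CArG box, the site of serum response factor. In Myoz2 (chr2:213852779-213853028, - strand) they are a MEF2 box. In Tnnt2 (chr13:49818873-49819122, + strand) they are AGATAA, a form of the GATA factor site read on the opposite strand, and CATTCC. In Nppa (chr5:163711934-163712183, + strand), the gene of atrial natriuretic peptide, they are TATAAA, the box that places the start of transcription.
Myl3: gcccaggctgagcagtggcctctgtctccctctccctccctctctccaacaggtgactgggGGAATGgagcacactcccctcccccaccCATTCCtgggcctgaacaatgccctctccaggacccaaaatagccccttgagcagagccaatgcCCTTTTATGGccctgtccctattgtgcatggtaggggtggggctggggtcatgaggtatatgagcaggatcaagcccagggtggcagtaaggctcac
Myoz2: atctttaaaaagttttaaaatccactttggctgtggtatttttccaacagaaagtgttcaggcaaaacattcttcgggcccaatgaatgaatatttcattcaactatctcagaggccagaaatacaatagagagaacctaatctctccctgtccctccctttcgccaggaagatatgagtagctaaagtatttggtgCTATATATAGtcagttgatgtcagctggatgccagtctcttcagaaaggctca
Tnnt2: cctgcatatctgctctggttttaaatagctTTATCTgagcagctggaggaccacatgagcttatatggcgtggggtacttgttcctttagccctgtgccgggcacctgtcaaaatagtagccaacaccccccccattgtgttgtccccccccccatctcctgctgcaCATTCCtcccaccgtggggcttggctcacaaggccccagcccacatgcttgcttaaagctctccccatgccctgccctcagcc
Nppa: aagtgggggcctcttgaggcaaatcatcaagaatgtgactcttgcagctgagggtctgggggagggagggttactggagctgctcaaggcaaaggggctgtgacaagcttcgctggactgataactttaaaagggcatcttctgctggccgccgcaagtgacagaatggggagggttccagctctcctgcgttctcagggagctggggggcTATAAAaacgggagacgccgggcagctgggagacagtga

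Over the genes, 139 of the 186 with at least 8-fold enrichment and 11057 of all 13439 measured genes had such an upstream sequence in RefSeq. A MEF2 box, the site of MEF2 factors, was found in 7.91% of the 139 and in 0.443% of the 11057, or 0.572% of all 27457 upstream sequences of the table. TATAAA was found in 23.0% against 8.05% (13.1% of the table), CATTCC in 19.4% against 10.3% (11.8%), AGATAA in 13.7% against 6.46% (10.0%) and a CArG box in 4.32% against 1.22% (1.5%). MEF2 and TATA-like boxes are rich in A and T, and the 139 sequences had a lower median GC content, 54.8% against 59.2%, whose part in these shares was not tested. TNAAGTG, the core of an NKX2-5 site, was found in 7.91% against 7.71% (9.84%), and TNAAGGTCA, a site of estrogen-related receptors, in 0% against 0.579% (1.0%). Motifs were searched on both strands and are matches of letters, not measured binding. Ckm, Pln, Ckmt2 and Myl7 held none of the 7 motifs in this window.

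The contractile apparatus was the most uniformly heart-enriched group. The counts of this and each list below stand beside 6.24% of all genes that were heart-enriched. All 11 measured proteins of the thick filament and M-band were heart-enriched, with a median difference of 8.0. After Myh6, Myl2, Myl7 and Myl3 these were Ttn, the giant spring titin (8.14), Myom2 (8.0), Myh7, the slow β-myosin heavy chain (7.91), Mybpc3, myosin-binding protein C (7.91), Myl4, the atrial light chain (6.89), Myom1 (6.75) and Mylk3, the cardiac light-chain kinase (5.57). The SD of Myh7 among hearts was 0.32 (mean 12.36, n = 4), against 0.05 for Myh6.

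In the thin filament 10 of 11 were heart-enriched, with a median of 4.57. They included Tnnc1, the calcium-binding troponin (4.88), Lmod2, which lengthens actin filaments (7.11), and Tnni1, the slow skeletal and fetal inhibitory troponin, barely inside at 1.00. Tpm1, a tropomyosin of many tissues, was the exception, at a heart mean of 9.0 against 9.63 in kidney. At the Z-disc, its membrane anchors and muscle protein control 18 of 20 were heart-enriched (median 4.74). Beside Myoz2 and Csrp3 the leaders were Ankrd1, a stress-responsive nuclear and sarcomere protein (8.34), and Hspb7, a small heat shock protein (7.89). Des, the intermediate filament desmin, was 6.31 above. Fbxo32, the ubiquitin ligase atrogin-1, missed the fold at 0.97, and Pdlim5 was 1.42 below liver.

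Calcium handling was mixed, with 14 of 19 heart-enriched (median 2.57). The muscle-restricted proteins of the store and its junctions led: Pln, then Hrc, a calcium-binding store protein (7.35), Srl, sarcalumenin (7.20), and Jph2, which holds the store against the surface membrane (6.79). Casq2, the store's main calcium buffer, was 6.64 above. Ryr2, the release channel, read 12.39, 12.27, 12.29 and 12.25 in the hearts, but brain also read 9.33 to 10.10, so its difference was 2.49. Atp2a2, the pump SERCA2, was 1.26 above, and its 4 further probe sets gave 2.54, 1.22, -0.17 and -0.18. Those not heart-enriched were Slc8a1, Camk2d, S100a1, Cacna2d1 and Fkbp1b. Camk2d read 11.42 in heart and 11.34 in brain. Slc8a1, the sodium-calcium exchanger that is abundant in heart muscle, read only 3.83 in heart, near the low end of the array, so its probe set gave no usable level.

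Fewer ion channel and gap junction genes were heart-enriched, 11 of 23 with a median of 0.98. The leaders were Popdc2, a cyclic AMP-binding membrane protein (4.63), Kcnip2, the subunit of the transient outward current (2.69), Kcnj5 of the acetylcholine-gated potassium current (2.44) and Abcc9 of the ATP-sensitive potassium channel (2.32). Further probe sets gave 3.38 for Popdc2, 3.06 and 0.0002 for Kcnip2, 0.38 for Kcnj5 and 1.68 for Abcc9. Of the 23, 17 were higher in heart than in brain, 20 than in kidney and 20 than in liver, against 42.2%, 30.4% and 33.6% of all genes. Gja1, the main ventricular gap junction protein, read 12.43 in heart and 12.45 in brain, Scn4b, a sodium channel subunit, 10.81 and 10.72, and Kcnd2, the pore of the outward current, 7.80 and 10.62.

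Of 23 cardiac transcription factors and regulators 9 were heart-enriched. They were Irx4, a ventricular repressor (4.72), Tbx5, which patterns the chambers (4.69), Smyd1, a muscle methyltransferase (4.67), Myocd, the coactivator of serum response factor (3.87), Nkx2-5, the early cardiac homeobox factor (3.84), Gata6 (2.18), Hand2 (1.93), Gata4 (1.75) and Tbx18 (1.33). Nkx2-5 read 8.35, 8.22, 8.32 and 8.33 in the hearts and at most 4.64 elsewhere, with no overlap. Tbx5 was more variable, at 8.06, 8.95, 7.73 and 8.25, and stayed above all other arrays, which reached 3.77 at most. Gata4 read 8.71 to 9.08 in heart and 6.93 to 7.16 in liver. Further probe sets of Gata4 (-0.38), Gata6 (0.80 and -0.08), Hand2 (0.87) and Irx4 (-0.11) did not meet the rule. Factors shared with other organs were not heart-enriched: Mef2a read 10.80 in heart and 10.48 in brain, and Mef2c, a factor of heart and nerve cells, 9.43 and 10.85.

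Among secreted peptides and receptors 5 of 15 were heart-enriched. Nppb, the natriuretic peptide released by stretched muscle, read 12.07, 12.20, 12.06 and 12.70 in the hearts and 8.19 above the next organ, and Nppa, its mainly atrial relative, read 12.25, 13.19, 13.15 and 13.37 and 6.94 above. Neither overlapped another organ. Fgf16 (3.5), Aplnr, the apelin receptor (2.83), and Vegfb (2.45) followed, although a second probe set of Aplnr stayed near the low end in all organs. Adrb1, the main β-adrenergic receptor of the heart, read only 4.47 and was 0.48 above liver.

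**Figure D2:**
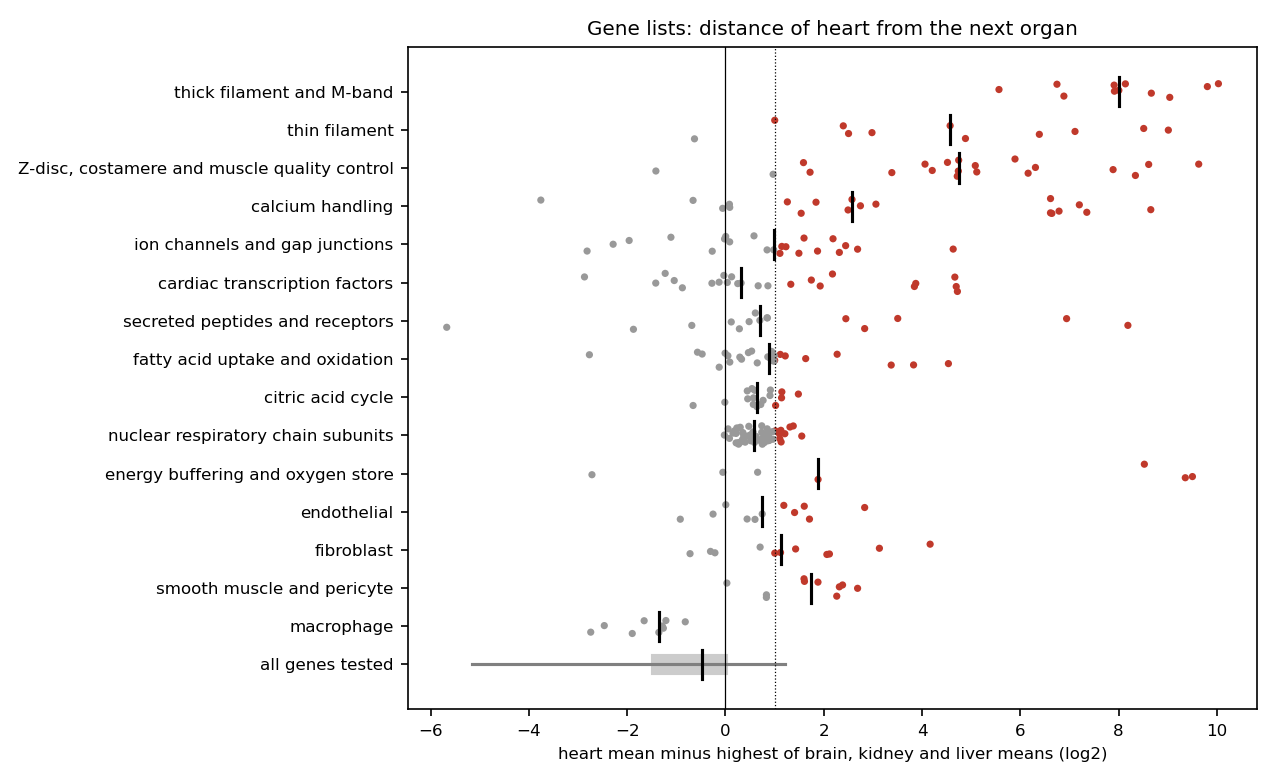
Heart mean minus the highest other organ mean on the log2 scale (x axis) for each measured member of 15 gene lists (y axis), 1 point per gene, red where heart-enriched, with a bar at the median of each list, and for all genes the median, the middle 50% (box) and the range from 5% to 95% (line). The dotted line marks 2-fold. Contractile lists sit far to the right, with a median of 8.0 for the thick filament, and all macrophage markers lie left of 0. The listed respiratory chain subunits, which leave out Cox6a2, Cox8b and Cox7a1, form a narrow band around 0.58.

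Most of the machinery of energy supply differed from the motor in size: small, very general excesses. Of 58 listed nuclear-encoded subunits of the respiratory chain 9 met the 2-fold rule. Without a fold limit 55 were above all 3 organs at adjusted p under 0.05, against 14.2% of all genes. The median difference of the 58 was 0.58. This list leaves out the muscle forms Cox6a2, Cox8b and Cox7a1, described below among tissue forms, which had far larger differences. Ndufa5, a subunit of complex I, had the largest value of the 58 at 1.55, with 10.44, 10.37, 10.39 and 10.42 in the hearts and at most 9.0 elsewhere. All 9 that met the rule were complex I subunits, among them Ndufv3 (1.38, -0.54 by its second probe set), Ndufs1 (1.31) and Ndufb10 (1.21). The 3 that were not above all organs were Cox5a (0.08), Atp5mc3 (0.05) and Atp5f1b (-0.02). In the citric acid cycle 4 of 17 met the rule, Idh3b (1.48), Dld (1.15), Cs, citrate synthase (1.14), and Mdh2 (1.02), and 15 were above all 3 organs at any fold.

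Fatty acid uptake and oxidation had 8 of 26 heart-enriched, and 18 above all 3 organs at any fold. Plin5, which coats lipid droplets next to mitochondria, was 4.54 above the next organ. Cpt1b, the muscle form of the gate for fatty acid entry into mitochondria, read 11.65 to 11.71 in the hearts, against 7.59 to 8.27 in kidney, and was 3.83 above. Cd36, a fatty acid importer, was 3.37 above, and Lpl, which frees fatty acids from blood lipoproteins, 2.27. Genes that liver also uses for fat were not enriched, such as Acsl1 (12.18 in heart, 12.75 in liver) and Dgat2 (9.37 and 12.14). In energy buffering and oxygen storage 4 of 7 were heart-enriched, Ckmt2, Mb, Ckm and Slc25a4, the muscle form of the adenine nucleotide carrier (1.88).

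Pairs of tissue forms showed the same enzymatic step carried by different genes. Over the 39 measured forms 14 were heart-enriched. Cox6a2, the muscle form of a cytochrome oxidase subunit, read 13.62, 13.67, 13.65 and 13.65 in the hearts and 7.08 above the next organ, whereas its general form Cox6a1 read 12.20 to 12.24 in the hearts and was 0.40 below the highest organ. Cox8b (7.01) and Cox8a (-0.74) differed in the same way, and Cox7a1, another muscle form, was 4.81 above. For creatine kinase the cytosolic muscle form Ckm (8.52) contrasted with brain form Ckb (-1.79), and mitochondrial muscle form Ckmt2 (9.50) with Ckmt1 (-7.94), which read 11.63 to 11.92 in brain and only 3.57 to 4.10 in heart.

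Glycolysis and glycogen breakdown split likewise. Eno3 (6.31) and Pgam2 (5.63), the muscle enolase and phosphoglycerate mutase, were heart-enriched, and Pgam1 was not (-0.89). Pygm, muscle glycogen phosphorylase, was 4.04 above, the brain form Pygb 0.51 above and the liver form Pygl 5.67 below liver. Slc2a4, the insulin-responsive glucose transporter GLUT4, read 11.54, 11.34, 11.46 and 11.20 in the hearts and at most 7.04 elsewhere, 4.81 above, whereas Slc2a1 (-1.53) and Slc2a2 (-8.78) were below brain and liver, respectively. Fabp3, the heart fatty acid-binding protein, was 1.63 above, and Fabp1, the liver form, 9.63 below liver. Fabp7, the brain form, was 6.19 below brain and 7.26 below liver. Cpt1b (3.83) and Cpt1a (-1.63) differed in sign as well. Several forms that muscle favours missed the 2-fold rule, among them Pfkm (0.69, although 1 of its 2 further probe sets met the rule at 1.69), Hk2 (0.63), Ldhb (0.57) and Aldoa (0.08). Hk2 read only 4.46 to 4.84 in the 4 hearts, near the low end of the array, so its probe set gave no usable level.

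**Figure D3:**
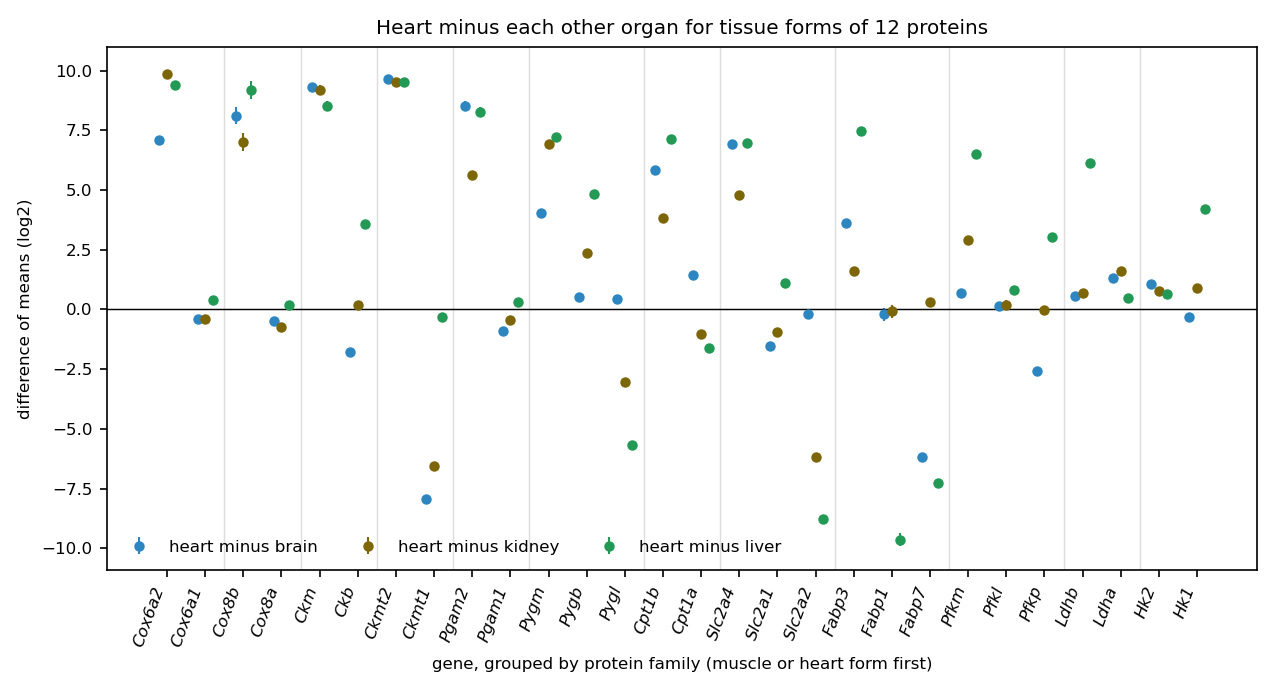
Heart mean minus the mean of brain, kidney or liver on the log2 scale (y axis, bars are 1 SE of the fit, 4 rats) for 28 genes that are forms of the same protein (x axis, muscle or heart form first). For Cox6a2 all 3 differences are 7.08 or more while those of Cox6a1 lie between -0.40 and 0.40, and for Slc2a2 the heart lies 8.78 under liver.

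Other cell types of the heart were also visible. Fibroblast genes were heart-enriched for 7 of 11, led by matrix proteins Lum, lumican (4.16), and Postn, periostin (3.13). Smooth muscle and pericyte genes were heart-enriched for 7 of 10, such as Cnn1, calponin (2.69), and Myh11, smooth muscle myosin (2.38), and endothelial genes for 5 of 11, such as Vwf (1.71) and Pecam1 (1.41). These calls do not include the lung. There the endothelial list averaged 10.1 to 10.4, against 8.9 to 9.2 in the air hearts, and the fibroblast list 10.30 to 10.71 against 10.05 to 10.67. The smooth muscle and pericyte list averaged 7.4 to 7.8 in lung and 7.6 to 8.6 in the hearts. For Postn, heart minus lung was -2.56. No macrophage marker (0 of 9) or lymphocyte marker (0 of 8) was heart-enriched, against 6.24% of all genes, a share at which a list of this size can hold none. Of 13 skeletal muscle markers 4 were, Ckm, Actn2, Acta1 and Casq1, which heart muscle also uses, while Myod1, Myog and Myf6, the factors that define skeletal muscle, were not. Fabp4 was the 1 of 7 adipocyte markers that was heart-enriched (3.66), although blood vessels express it too.

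Hearts differed from each other in several atrial genes. Over heart-enriched genes the median SD among the 4 hearts was 0.148, close to 0.143 over all genes. Myl7, the atrial regulatory light chain, read 11.86 in rat 126 against 13.26, 12.90 and 13.11. Sln, an atrial inhibitor of the calcium pump, read 10.25 against 12.13, 11.92 and 12.24, and Myl4 9.84 against 11.45, 10.92 and 11.44. Rat 126 was the lowest heart for each of these, and for Nppa as well. Averaged over the 11 atrial markers, 6 of them heart-enriched, the level was 9.28 in rat 126 against 10.02, 9.74 and 10.00, while over the 8 ventricular markers, 5 of them heart-enriched, it lay between 8.71 and 8.89. The part that the amount of atrial tissue in each piece had in these genes was not tested.

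The 5 heart-enriched genes with the largest SD were Atp1b4 (1.35), Mybphl (1.23), Thbs4 (1.21), Reg3b (1.17) and Klk10 (0.98). Atp1b4, a muscle protein related to sodium pump β-subunits, read 3.55 in rat 126 and 6.53, 5.99 and 6.09 in the others, so that this heart lay next to the other organs, whose highest array read 3.48. Mybphl, an atrial relative of myosin-binding protein H, read 6.44 against 9.23, 8.41 and 8.75, and Thbs4, a matrix protein, 4.86 against 7.72, 6.72 and 6.92. Reg3b, a secreted lectin, read 5.47, 8.15, 6.97 and 6.06, and Klk10, a secreted protease, 4.56, 6.50, 5.54 and 4.39. Rat 132 was the highest heart for all 5 genes.

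Among the other air-breathing rats, 1 heart had still lower atrial levels. Over all 14 air hearts, the atrial markers ranged from 8.93 in rat 96 (1 h) and 9.28 in rat 126 up to 10.18, with every other heart at 9.63 or above. In rat 96 Sln read 8.78, Myl4 8.71, Mybphl 4.4 and Nppa 11.68. Myl2 kept to 13.44 to 13.55 and Myh6 to 13.52 to 13.75 in all 14 hearts. The adipocyte list varied too, from 5.48 in rat 126 through 6.44 and 7.13 to 7.76 in rat 156 among the 4 hearts, and the red cell list from 7.46 to 8.34.

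**Figure D4:**
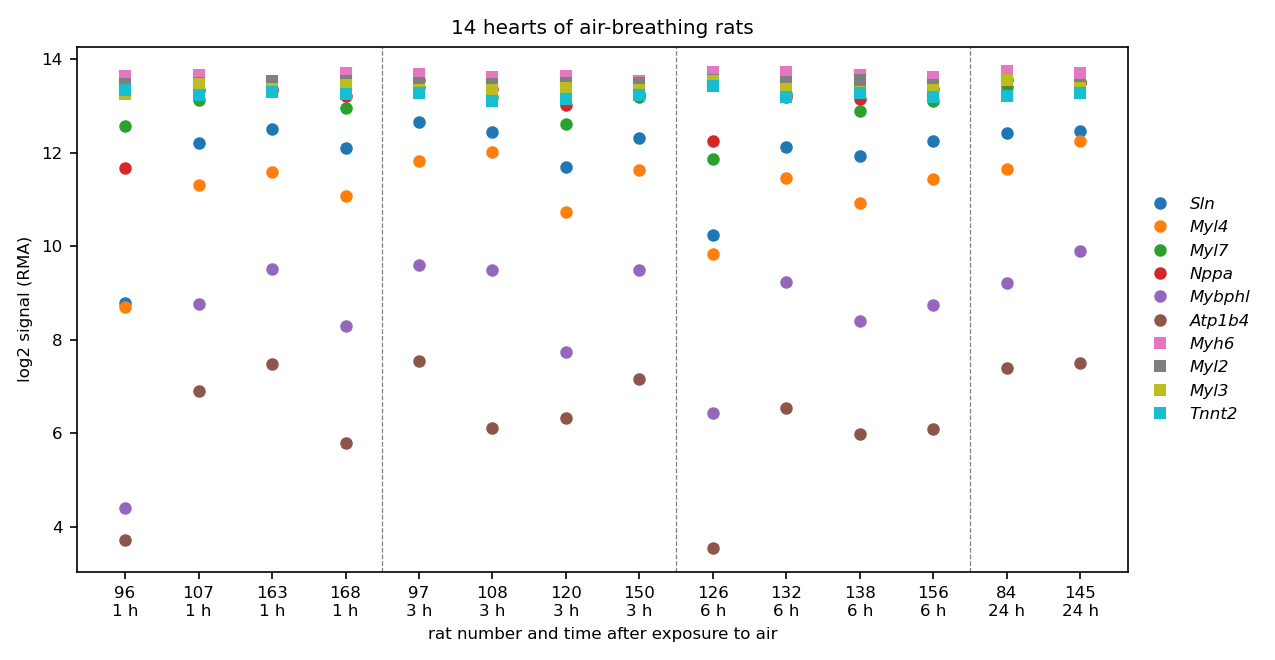
Log2 array signal (y axis) in each of 14 air hearts (x axis, rat number and hours after exposure), 1 point per gene and heart, with circles for genes that are atrial or varied most and squares for Myh6, Myl2, Myl3 and Tnnt2. Sln is lowest in rats 96 and 126, at 8.78 and 10.25, while Myl2 stays between 13.44 and 13.55.

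Genes that the heart lacked relative to all 3 organs were fewer. Mal2, a protein of transport across polarized epithelia, read 3.05, 2.98, 3.01 and 2.91 in the hearts against 8.89 or more in every other array, a difference of -6.25 from the lowest organ. These hearts lay under their lower quartile of signal, so the size of the difference is set by the level in the other organs. A further probe set of Mal2 averaged 3.01 in heart and 3.72 to 4.39 in the other organs, and did not meet the rule. Igsf11, an adhesion protein, was at -5.28, Nipsnap1, a mitochondrial protein, at -4.39, Elovl2, which elongates polyunsaturated fatty acids, at -3.98, Aldh1l1, a folate enzyme, at -3.95 and Ociad2 at -3.94. For Ociad2 the heart of rat 132 read 5.13 against 3.90 to 4.22 in the other 3, with no overlap with other organs. These calls do not include the lung. Over the air hearts and lungs, heart minus lung was -7.93 for Mal2, -3.955 for Ociad2 and -1.60 for Aldh1l1. It was -1.56 for Igsf11, -1.53 for Nipsnap1 and 0.31 for Elovl2, which averaged 3.02 in lung, near the low end of the array. In 25 of the 272 heart-low genes the heart mean lay under its lower quartile of signal, as it did in 2007 of all 13439 genes.

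The organ differences were measured again in other animals. At 1 h after air, in 4 other rats, 695 of the 838 genes (82.9%) were again at least 2-fold above both brain and kidney, where 7.92% of all genes were, and 812 were above both at any fold. At 3 h the number was 764 (91.2%, against 7.64% of all genes), and 831 at any fold. All 186 genes of at least 8-fold enrichment met the 2-fold rule again at both times, and no gene was called in the opposite direction. Myh6 was 9.82 above the higher of brain and kidney at 1 h and 8.95 above at 3 h, and Nkx2-5 was 3.92 and 4.20 above. Of the 272 heart-low genes 246 were again heart-low at 1 h (5.69% of all genes) and 247 at 3 h (4.96%). The series holds no liver arrays of air-breathing rats at these times, so these counts rest on the other 2 organs.

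Adding the lung changed the picture for part of the list. Over 14 air hearts and 10 air lungs, mostly of different rats, 547 of the 838 genes (65.3%) were at least 2-fold higher in heart, where 12.1% of all genes were, 76 were at least 2-fold lower, where 18.6% of all genes were, and 215 were neither. Of the 186 most enriched, 169 were higher in heart, 5 lower and 12 neither. The genes lower in heart included Ager, a marker of flat alveolar cells (-5.63), Ltbp2 of elastic fibres (-3.71), Emp2 (-3.28), Acvrl1, an endothelial receptor (-3.11), and Mfap4 (-2.57).

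Several heart muscle genes also had clear signal in lung. Myl7 averaged 10.30 ± 0.50 (SD, n = 10) there, between 9.57 and 11.09, and Myh6 10.10 ± 0.75, between 8.95 and 11.39. The lung levels of Cox8b (10.01), Tnni3 (8.82) and Myl4 (7.86) were also above the 3 other organs. The atrial marker Nppa averaged 5.44 ± 1.13 (SD, n = 10) in lung, under its mean of 6.05 in brain, but ranged from 3.92 to 7.48. Nppb, which is on neither the atrial nor the ventricular list, averaged 3.87. Some ventricular genes read near the low end in lung, with Myl3 at 3.44 to 3.91, Irx4 at 3.53 and Myl2 at 3.90 on average, although 1 of the 10 lungs read 5.22 for Myl2. Others on the ventricular list did not: Irx3, a homeobox factor, averaged 10.01 in lung, Lbh 8.46, Hey2 7.46 and Irx5 6.09. Over whole lists, the atrial markers averaged 8.30 to 9.07 in lung and the ventricular markers 5.56 to 6.03, against 8.93 to 10.18 and 8.66 to 9.02 in the hearts. The atrial list also holds genes with higher means in lung than in the air hearts. These were Gja5 (9.6 and 6.55), Nr2f2 (9.56 and 7.39), Stard10 (9.85 and 9.29) and Nr2f1 (5.36 and 4.56). The remaining atrial markers were higher in the hearts. Its lung average is thus not a measure of atrial muscle alone. In brain, kidney and liver at 6 h the atrial list averaged 6.36 to 6.46, 6.21 to 6.38 and 6.03 to 6.25, and the ventricular list 4.35 to 4.59, 5.05 to 5.52 and 3.88 to 3.95. Lungs thus lay above these organs on both lists. The source of heart muscle RNA in the lung pieces was not tested. Tbx5, which lung mesenchyme also uses, was 8.18 in lung and differed from heart by 0.20 ± 0.12 (SE, limma, adjusted p = 0.134), and Aplnr was 1.11 higher in lung.

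**Figure D5:**
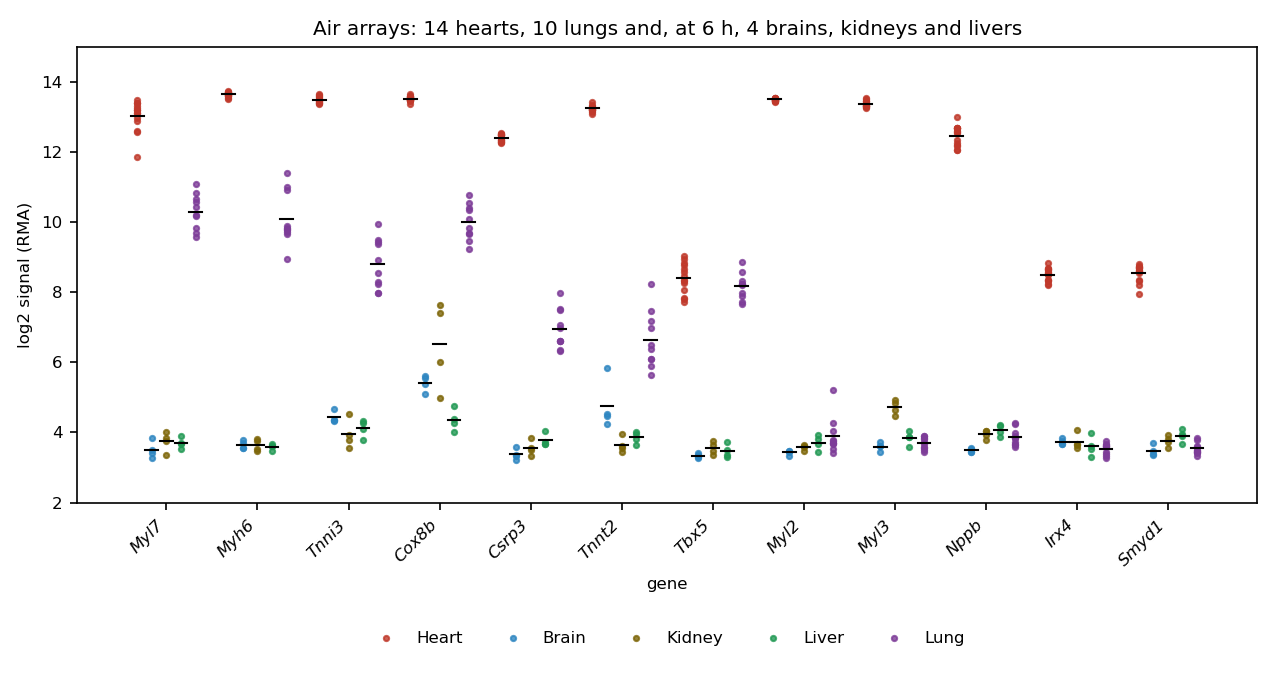
Log2 array signal (y axis) of 12 heart-enriched genes (x axis) in 14 air hearts, 10 air lungs and the 4 brains, kidneys and livers at 6 h, with 1 point per array and a bar at each mean. The lungs of Myl7 lie between 9.57 and 11.09 and those of Myh6 between 8.95 and 11.39, above brain, kidney and liver, while those of Myl3 lie between 3.44 and 3.91.

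Few of the 838 genes changed after PH3 until 6 h. In the fit over 29 hearts, 1 of the 838 genes changed at 1 h, Klf4, up by 0.63 (limma, adjusted p = 0.0483), when 0.0446% of all genes rose and 0% fell. At 3 h Tent5b (1.53) and Sesn1 (0.77) rose, when 0.0819% of all genes rose and 0.171% fell. At 6 h 31 rose and 43 fell, 3.70% and 5.13% of the 838, when 1.40% and 1.22% of all genes did. No gene, enriched or not, changed at 24 h (0% of genes in each direction), where 3 PH3 hearts met 2 air hearts. The air hearts at 6 h also served to choose the 838 genes, so the 6 h values are not independent of that choice.

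Klhl40, a stabilizer of thin filament proteins, changed most at 6 h. It read 9.82, 9.20, 9.30 and 12.18 in PH3 rats 128, 134, 140 and 141 and 6.89 to 7.33 in the air rats, a rise of 3.00 with no overlap. Nmrk2, a muscle kinase of NAD synthesis, rose by 2.27, Myl1, a skeletal light chain, by 2.0, and Lmcd1, a transcriptional regulator, by 1.86. Flnc, filamin C, rose by 1.17 and Hspb1, a small heat shock protein, by 1.10. Klhl38 read 7.40, 7.25, 6.77 and 4.94 after PH3 and 7.89 to 8.65 after air, and fell by 1.76. Trim63, the ubiquitin ligase MuRF1, fell by 0.58 with 8.70 to 8.92 after PH3 and 9.21 to 9.62 after air.

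The count of 74 at 6 h depended on single hearts and on the fit. It was 32 without PH3 rat 141, 39 to 49 without any 1 of the 4 air hearts and 75 to 109 without any 1 of the other PH3 hearts, and 13 in a fit of the 2 groups alone. At 1 h Klf4 was called again only without air rat 107 among the 8 fits without 1 heart, and at 3 h the count went from 0 without PH3 rat 122 to 8 without PH3 rat 105. Without rat 141, 31 of the 74 changes (14 up, 17 down) still passed, all 74 kept their direction, and 23 passed in every fit that left out 1 array. Nppb rose by 0.72 with all arrays, and by 0.63 without rat 141 (adjusted p = 0.0931). Over the 8 ventricular markers rat 141 averaged 8.0, against 8.71 to 8.88 in the other 3 PH3 hearts. The PH3 hearts also differed in markers of other cells: the 9 macrophage markers averaged 7.86 to 8.39 against 7.94 to 7.99 after air, the 10 neuron markers 3.98 to 5.28 against 3.89 to 4.13, and the 7 glia markers 4.08 to 5.37 against 3.93 to 4.19. None of these 26 markers was heart-enriched, and the part of such cells in the 6 h changes was not tested.

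Between times in air, few organ differences changed. The heart minus the mean of brain and kidney differed between 6 h and the earlier times for 8 of all 13439 genes (0.0595%), with 935 at an unadjusted p under 0.05. Only Hs3st5, an enzyme that modifies heparan sulfate, was heart-enriched among the 8. Its heart mean was 4.94 at 1 h, 5.28 at 3 h and 6.08 at 6 h, and the organ difference changed by 1.09 ± 0.18 (SE, limma, adjusted p = 0.00159). Each time came from other rats. The air hearts at 6 h also served to choose the heart-enriched genes. For Hs3st5 its place among them and its change are therefore not independent.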

How the data were processed

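The values are log2 expression signals that the authors deposited for 31139 probe sets. Per the submitters' processing notes, RMA, Affymetrix Expression Console and Partek were used, with versions and genome build not given in the sources used here. The depth of an array is not a count, so the number of arrays limits the precision. Probe sets were named from GEO's platform annotation: 19069 had 1 gene symbol (13439 genes), 572 had several and 11498 none in that table. Probe sets outside the 19069 were left out of the tests.

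From these values, limma 3.58.1 in R 4.3.3 fitted organ with rat as a block over the 16 arrays, with a mean-variance trend. A gene was called on the largest two-sided p of the 3 organ contrasts, with Benjamini-Hochberg adjustment over all 19069 probe sets, at 0.05. The probe set with the highest mean over the 16 arrays stood for a gene. Of 372 further probe sets of 258 heart-enriched genes, 165 met the rule as well, 306 had the heart highest and 1 was heart-low. P-values of the organ fit measure the spread of the organ differences between these rats, since the block takes up what all organs of a rat share. Those of PH3 against air measure the spread between hearts of a group. The labels give the pairing, as organs with 1 rat number come from 1 animal: deviations from group means correlated at 0.10 on average between organs of 1 rat (13 of 24 pairs over 0.1) and at -0.03 between rats. Repeats at 1 h and 3 h used the same fit, the lung and time comparisons all air arrays with rat as a random block, and PH3 against air all 29 hearts. No filter was set on low signal. Of 100 simulated probe sets raised by each amount in heart, 96 (by 1.5) and 100 (by 3) were recovered. The other simulated probe sets had the same mean in every organ, which made a 2-fold excess unlikely. That 0 of them were called therefore does not measure false calls in the real data.

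Named genes were the 12 most enriched and 6 most low genes, up to 4 enriched members of each muscle list, all enriched transcription factors, all tissue forms, the 5 enriched genes with the largest SD and the 6 defining markers. Further genes named were chosen after their values were seen. Members and lists were chosen with earlier results of these data known. Figures were drawn with matplotlib 3.10.9. Alternatives covered the block, trend, scaling, filter, weights, fold, choice of probe sets and leaving out rats or arrays.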

Additional observations from a re-analysis of the deposited data

Results flagged for a closer look

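In 26 of 384 groups of 4 arrays of the named genes, 1 array lay far from the other 3 (by the gap to the nearest of them over the range of the group, against the critical value of Dixon at 95%). By chance alone about 5% of groups would have such an array. Among hearts, Myoz2 read 12.93 in rat 156 against 13.03 to 13.04, Myocd read 7.42 in rat 132 against 7.97 to 8.08 and Cd36 read 12.34 in rat 126 against 12.22 to 12.23. Gata4 read 9.08 in rat 126 against 8.71 to 8.76, Eno3 read 11.25 in rat 138 against 11.45 to 11.48 and Cpt1a read 9.76 in rat 126 against 9.47 to 9.52. Among brains, Tnni3 read 4.66 in rat 126 against 4.32 to 4.37, Nipsnap1 read 9.30 in rat 156 against 9.50 to 9.54 and Hspb7 read 3.69 in rat 138 against 3.94 to 3.98. Cox7a1 read 6.46 in rat 156 against 6.13 to 6.16, Pgam2 read 3.99 in rat 132 against 4.27 to 4.27 and Ldha read 11.01 in rat 156 against 11.19 to 11.23. Pygm read 7.16 in rat 138 against 7.62 to 7.70, Fabp1 read 4.97 in rat 156 against 3.26 to 3.41 and Cpt1a read 8.34 in rat 156 against 8.0 to 8.05. Slc2a2 read 3.65 in rat 156 against 3.43 to 3.44. Among kidneys, Dld read 10.08 in rat 132 against 9.14 to 9.29. Among livers, Csrp3 read 4.03 in rat 126 against 3.67 to 3.72, Ckm read 5.14 in rat 132 against 3.84 to 3.96 and Elovl2 read 8.48 in rat 138 against 9.09 to 9.18. Fgf16 read 3.65 in rat 132 against 3.87 to 3.90, Myocd read 4.50 in rat 138 against 3.81 to 3.85 and Lpl read 6.20 in rat 156 against 6.04 to 6.06. Pfkp read 5.62 in rat 138 against 5.84 to 5.87, Pygl read 10.08 in rat 132 against 10.55 to 10.65 and Atp2a2 read 10.08 in rat 138 against 9.84 to 9.85. The heart arrays that stood apart for Cd36, Cpt1a and Gata4 were all from rat 126, and the brain of rat 156 stood apart for 6 genes. In that brain the hepatocyte list averaged 6.44, against 4.94 to 5.02 in the other brains. It averaged 5.185 in the heart of rat 156 against 4.36 to 4.505, but 4.93 in its kidney against 5.82 to 6.08. The skeletal muscle list averaged 4.925 in the liver of rat 132, against 3.94 to 4.10 in the other livers. The source of these levels was not tested.

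For 8 genes the difference between heart and the mean of brain and kidney changed between the earlier times and 6 h by the test of that change (limma, Benjamini-Hochberg adjusted p between 0.00159 and 0.0484): Hs3st5 by 1.09, Eps8l2 by 0.84, Tut1 by 0.84, P2ry1 by 0.71, Hic2 by 0.68, Cpeb3 by 0.61, Adra1a by 0.49 and Zfp780b-ps1 by -0.65 on the log2 scale. The group means of Adra1a lay between 3.62 and 4.22 in all organs and times, near the low end of the array, as did those of Cpeb3 (3.56 to 4.36) and Zfp780b-ps1 (3.30 to 3.78). Among probe sets without 1 gene symbol, which entered no comparison, 439 of 12070 (3.64%) met the heart-enriched rule, 95 of them at 8-fold or more.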

How the results depend on the processing

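Counts of heart-enriched and heart-low genes depended mainly on the fold asked for: with 4-fold in place of 2-fold, 334 genes (426 probe sets) were heart-enriched and 74 (82) heart-low. Without the replicate block for rat, 837 of the 838 heart-enriched genes and 271 of the 272 heart-low genes were called again, and no named gene left its call for this pairing. Of the 838 genes, 812 were called again with arrays centred on their medians, 826 after quantile normalization and 749 with the mean of a gene's probe sets, and 223, 240 and 218 of the 272 heart-low genes. Leaving out 1 rat or 1 array gave 815 to 862 heart-enriched and 269 to 287 heart-low genes, and 744 genes, with all 186 of 8-fold, were called in each of these 20 fits. Mdh2 lost its call after quantile normalization and without the heart of rat 138, and Gata4, Gata6 and Ndufv3 with the mean of their probe sets. After PH3, the fit of the 2 groups alone called 0 heart-enriched genes at 1 h and 13 at 6 h, and the fit without the mean-variance trend 0 at 1 h. Leaving out 1 heart gave 0 to 1 genes at 1 h, 0 to 8 at 3 h, 32 to 109 at 6 h and 0 to 0 at 24 h. No named gene changed sign under the alternatives run, but the side with more calls turned against kidney, from 4085 higher and 4320 lower to 5268 and 3657 with centred arrays and 4239 and 4088 after quantile normalization, and against liver, from 4518 and 4227 to 4113 and 4776 with centred arrays. With the mean of their probe sets 834 of the 838 genes stayed above all 3 organs. Signals near 4 limit what can be said of genes the heart lacks, and the number of rats limits small differences.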

Other observations

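The gene lists left out most of the heart-enriched genes: 702 of the 838, and 118 of the 186 at least 8-fold above the next organ, were in none of them. The largest of these was Lrrc10, a leucine-rich repeat protein of heart muscle, at 12.15 ± 0.11 (SD, n = 4) in heart against 3.59 to 3.79 on average in the other organs, a difference of 8.36 on the log2 scale. Rpl3l, a muscle form of a ribosomal protein, was 7.89 above the next organ, Dhrs7c, an enzyme of the calcium store, 7.80, Txlnb, a taxilin of muscle, 7.47, Trim72, which repairs the surface membrane, 7.39, and Spink8, a secreted protease inhibitor, 7.36. Tnni3k, a kinase that binds cardiac troponin I, was 6.89 above.

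Families of protein turnover and protein folding held further members, chosen after their values were seen. Over all genes 6.24% were heart-enriched and 2.02% heart-low. Because the families were picked in this way, their counts cannot be judged against these shares. Of the 11 measured genes of the Asb family, adaptors of ubiquitin ligases, 5 were heart-enriched: Asb12 (6.33), Asb2 (5.69), Asb11 (5.16), Asb14 (4.79) and Asb18 (3.81). Of the 29 Klhl genes, most of them adaptors of another ubiquitin ligase, 6 were heart-enriched, Klhl31 (6.55), Klhl41 (5.80), Klhl38 (4.41), Klhl30 (3.02), Klhl40 (2.32) and Klhl21 (1.19), and Klhl2 and Klhl36 were heart-low. Of the 7 small heat shock genes named Hspb, 6 were heart-enriched, from Hspb7 (7.89) and Hspb3 (5.75) to Hspb8 (1.58), and Hspb9 (0.04) was not.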
